A study of Mus musculus with 22 samples.

Results

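Keratin genes were examined in the deposited lamin A/C, BRG1, CHD4 and Lap2alpha regions of mouse dermal fibroblasts. The genes were Krt10, Krt14, Krt15, Krt16, Krt17 and Krt19 on chromosome 11 and Krt1, Krt5, Krt8 and Krt18 on chromosome 15. They are 10 of the 21887 protein-coding genes on assembled chromosomes. They were chosen by name, with the coverage by lamin A/C, BRG1, CHD4 and Lap2alpha regions in these same libraries known, so all values below are descriptions and no test was made. Each gene was taken with 10 kb on both sides (GRCm38), and the percent of this window covered by regions is called its coverage.

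Keratins are the intermediate filament proteins of epithelial cells, and a filament needs a type I keratin paired with a type II keratin. In the mouse the type I genes lie together on chromosome 11 and the type II genes on chromosome 15. Krt18 is the exception, a type I gene that lies beside its type II partner Krt8 on chromosome 15. The pair Krt5 and Krt14 marks basal keratinocytes, Krt1 and Krt10 mark the layers above them, and Krt8 and Krt18 mark simple epithelia. Krt15 and Krt19 are known from basal and hair follicle cells, and Krt16 and Krt17 from wounded or stressed epidermis. Dermal fibroblasts build their filaments mainly from vimentin. Lamin A/C, itself an intermediate filament protein, forms part of the nuclear lamina, where silent genes often lie, and a second pool of it lies in the nuclear interior.

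Chromatin immunoprecipitation with sequencing (ChIP-seq) was done on wildtype (WT) cells and on cells without Lap2alpha (KO), a partner of lamin A/C in the nuclear interior. Lamin A/C was precipitated with antibody 3A6 or E1, and BRG1 and CHD4, the ATPases of the SWI/SNF and NuRD chromatin remodellers, with 1 antibody each, in both genotypes. Lap2alpha was precipitated with antibody 1H11 and is analysed here in WT cells only. Sonication took 16 or 20 cycles. Every antibody, genotype and sonication length has 1 library, so WT can be set against KO in 4 pairs with lamin A/C, in 2 with BRG1 and in 2 with CHD4. Both genotypes are labelled as dermal fibroblasts with no other allele or agent named, and the labels give neither the animals nor the clones behind them. A mean ± SD over libraries or pairs therefore spans antibodies and sonication lengths and is not a replicate error.

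The lists held 7283 to 233769 regions, and the KO CHD4 list at 20 cycles was the shortest. In every lamin A/C pair the KO list held more regions than the WT list. For 3A6 it was 188132 against 86033 at 16 cycles and 226877 against 182893 at 20 cycles. For E1 it was 107717 against 43798 and 233769 against 144489. The KO 3A6 list at 20 cycles covered less length, 60.4 against 66.5 Mb. For BRG1 the KO list held 107321 regions against 72225 at 16 cycles, and 175641 against 205999 at 20 cycles. Read depth is unknown from these lists, which hold positions without heights. In a culture, fewer cells with a protein at a site and less of it in each cell cannot be told apart. To check the fibroblast label, cell type markers were looked up: 13 of 16 fibroblast marker genes, Col1a1 and Col1a2 among them, had a BRG1 region within 1 kb of a gene end in all 4 BRG1 libraries. Of 12 keratinocyte marker genes 1 did, and 33.9% of all genes did. In at least 1 BRG1 library 16 of 16 fibroblast and 7 of 12 keratinocyte markers had one, beside 69.4% of all genes. The median over genes of mean BRG1 coverage was 15.1% for fibroblast markers, 6.62% for keratinocyte markers and 3.62% for all genes. By coverage, BRG1 was thus not low at the keratinocyte markers.

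The starts of 4 keratins whose surroundings differ are printed here. They run from 250 bases before to 50 bases after the start in RefSeq (GRCm38.p6), on the strand of the gene, with CG dinucleotides in capitals. Krt14 is shown because its start was the only one covered by a region, Krt8 and Krt18 because BRG1 regions lay close by, and Krt5 because it had the most KO lamin A/C coverage. The positions are chr11:100205981-100206280 (minus strand) for Krt14, chr15:101712856-101713155 (minus strand) for Krt5, chr15:102004293-102004592 (minus strand) for Krt8 and chr15:102027966-102028265 (plus strand) for Krt18.
Krt14: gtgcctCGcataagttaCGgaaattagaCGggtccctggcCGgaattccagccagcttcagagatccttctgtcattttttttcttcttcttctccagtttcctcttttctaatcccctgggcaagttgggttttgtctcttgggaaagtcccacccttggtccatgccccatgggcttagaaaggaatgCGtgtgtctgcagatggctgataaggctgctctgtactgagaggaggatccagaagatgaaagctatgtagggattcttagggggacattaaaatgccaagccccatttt
Krt5: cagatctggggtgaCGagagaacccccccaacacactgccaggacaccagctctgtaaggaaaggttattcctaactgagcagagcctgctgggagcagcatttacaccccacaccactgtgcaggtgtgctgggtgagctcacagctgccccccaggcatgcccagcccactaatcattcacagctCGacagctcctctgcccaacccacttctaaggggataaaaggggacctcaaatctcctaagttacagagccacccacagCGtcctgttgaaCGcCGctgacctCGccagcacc
Krt8: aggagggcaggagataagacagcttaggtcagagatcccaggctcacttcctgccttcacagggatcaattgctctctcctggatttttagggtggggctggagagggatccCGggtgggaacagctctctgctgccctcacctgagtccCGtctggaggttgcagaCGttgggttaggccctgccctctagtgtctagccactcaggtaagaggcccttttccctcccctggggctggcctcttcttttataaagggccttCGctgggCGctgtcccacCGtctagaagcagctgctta
Krt18: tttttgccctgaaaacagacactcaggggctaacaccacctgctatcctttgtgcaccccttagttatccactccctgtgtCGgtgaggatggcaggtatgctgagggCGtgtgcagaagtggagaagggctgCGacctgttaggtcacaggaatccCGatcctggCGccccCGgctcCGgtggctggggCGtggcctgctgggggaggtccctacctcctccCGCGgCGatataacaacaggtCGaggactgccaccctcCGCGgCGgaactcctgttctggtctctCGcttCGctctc
These windows held 5 CG dinucleotides for Krt14, 6 for Krt5, 6 for Krt8 and 17 for Krt18, and the median over 32851 RefSeq start windows was 7. Krt10, the only other keratin of the 10 with an entry, held 2. Krt1, Krt15, Krt16, Krt17 and Krt19 had no entry. The RefSeq starts of Krt10 and Krt14 lie inside the gene's interval rather than at its end.

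Letters of known promoter elements were searched on both strands of the 5 windows. TATAAA, the TATA box, was in the windows of Krt10 and Krt8 and in 13.6% of all start windows. It began 26 bases before the start in Krt10 (position -26) and directly before the start in Krt8 (position -1), where a match on the other strand (position -3) overlapped it. CCAAT was in the Krt10 window alone, at position -141 on the other strand, and in 37.4% of all windows. GGGCGG, in 35.7% of all windows, and TGACTCA, in 5.20%, were in none of the 5. A match is a description of these letters and not of a bound site.

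**Figure D1:**
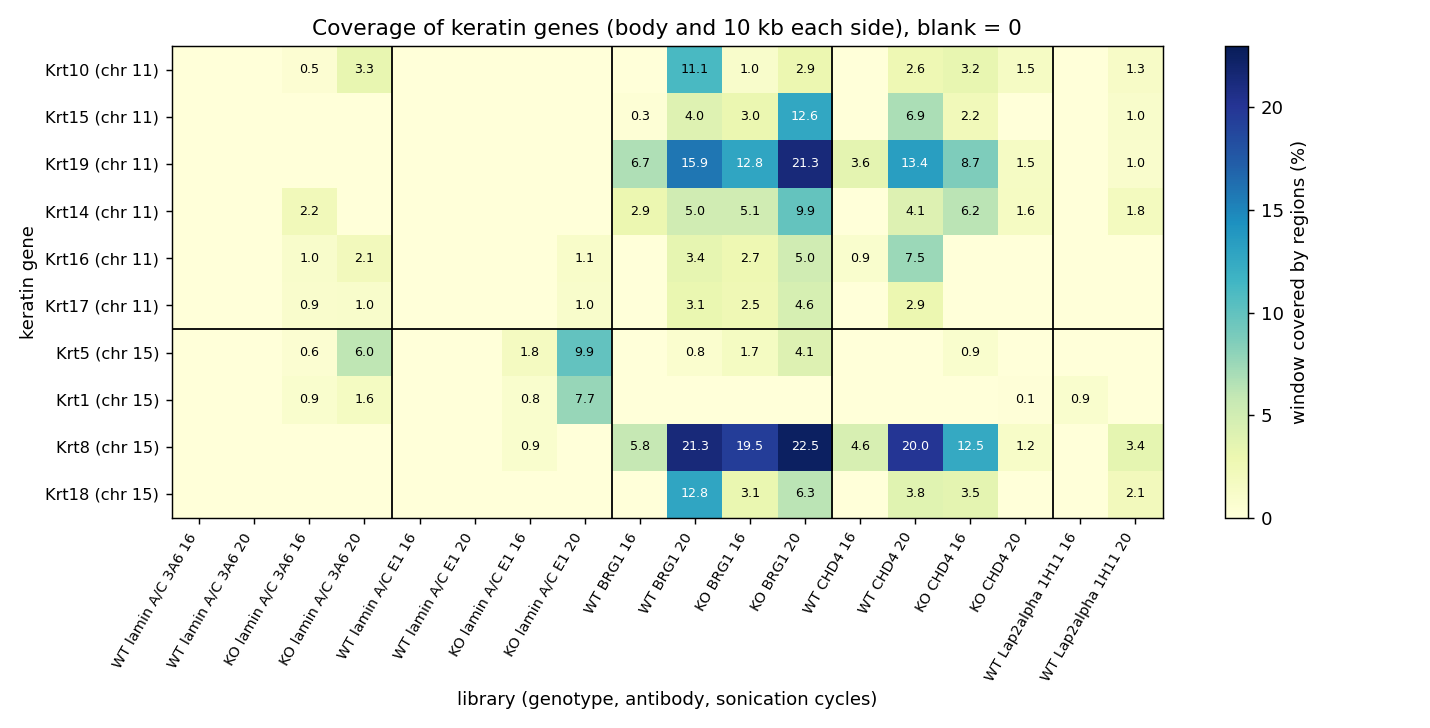
Percent of each keratin gene's window covered by regions (colour and number; blank cells are 0), with genes in rows and the 18 libraries, named by genotype, antibody and sonication cycles, in columns. All 4 WT lamin A/C columns are blank, Krt5 and Krt1 are filled in all 4 KO lamin A/C columns, and Krt8 and Krt19 hold the highest BRG1 values.

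No lamin A/C region of any WT library lay in the window of any of the 10 keratins, with either antibody or sonication length. Such an absence was common, since 71.8% of all genes had no WT lamin A/C region, and 83.1% of the 5745 genes with windows of the keratins' lengths (22812 to 32196 bp) had none. In KO cells 7 of the 10 keratins had a lamin A/C region in at least 1 library, and 55.4% of all genes had such regions in KO only. The 10 keratins were covered on average by 0.61% and 1.41% in KO 3A6 and by 0.35% and 1.97% in KO E1, at 16 and 20 cycles. Their mean was 1.08% ± 0.74 (SD over 4 KO libraries) against 0 in WT, while the mean over all genes was 1.22% in KO and 0.597% in WT. The 10 keratins thus stood near all genes in KO and below them in WT. Nothing is read from these shares about the keratins as a group, since the genes were chosen with this contrast in view.

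Krt5, the type II keratin of basal cells, had the most KO lamin A/C coverage of the 10. Its coverage was 0.63% and 6.02% in KO 3A6 and 1.80% and 9.93% in KO E1, at 16 and 20 cycles, and 0 in all 4 WT libraries. All 4 KO values were above all WT values, and both 20-cycle values were above both 16-cycle values. The KO list also held more regions than the WT list in each of these pairs. KO exceeded WT by 4.59 percentage points ± 4.24 (SD over 4 pairs). Of all genes, 94.5% had less coverage than Krt5 in KO E1 at 20 cycles, and 33.3% had less in KO 3A6 at 16 cycles.

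Krt1, the type II keratin of the layers above the basal cells, was the other keratin with a region in every KO lamin A/C library. Its coverage was 0.88% and 1.62% in KO 3A6 and 0.81% and 7.68% in KO E1, at 16 and 20 cycles, against 0 in WT. The 20-cycle E1 value stood far above the other 3, and KO exceeded WT by 2.75 percentage points ± 3.31 (SD over 4 pairs). Of the 10 keratins 2 were thus higher in KO in all 4 pairs, both on chromosome 15, beside 11.203% of all genes and 4.87% of genes with windows of their lengths. None of the 10 could be lower in KO, since their WT coverage was 0, and 0.905% of all genes were lower in all 4 pairs.

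The KO regions near Krt5 and Krt1 lay mostly beside the genes and not in them. In KO 3A6 at 20 cycles Krt5 had 5 regions of 208 to 378 bp, the nearest 1976 bp below its low-coordinate end at chr15:101704727-101705092, and none in the gene. In KO E1 at 20 cycles it had 7, of which chr15:101708925-101709274 and chr15:101711200-101711785 lay in the gene and covered 16.0% of its body. Krt1 had no lamin A/C region in its body in any library, and its nearest one lay 1385 bp away at chr15:101843665-101844040, in KO E1 at 20 cycles. No lamin A/C region touched the printed Krt5 start window. The call of these 2 genes was lost (0 keratins higher in every pair) with gene bodies alone, with 5 kb on each side, and when the longer list of a pair was trimmed to its widest regions to equal the shorter.

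**Figure D2:**
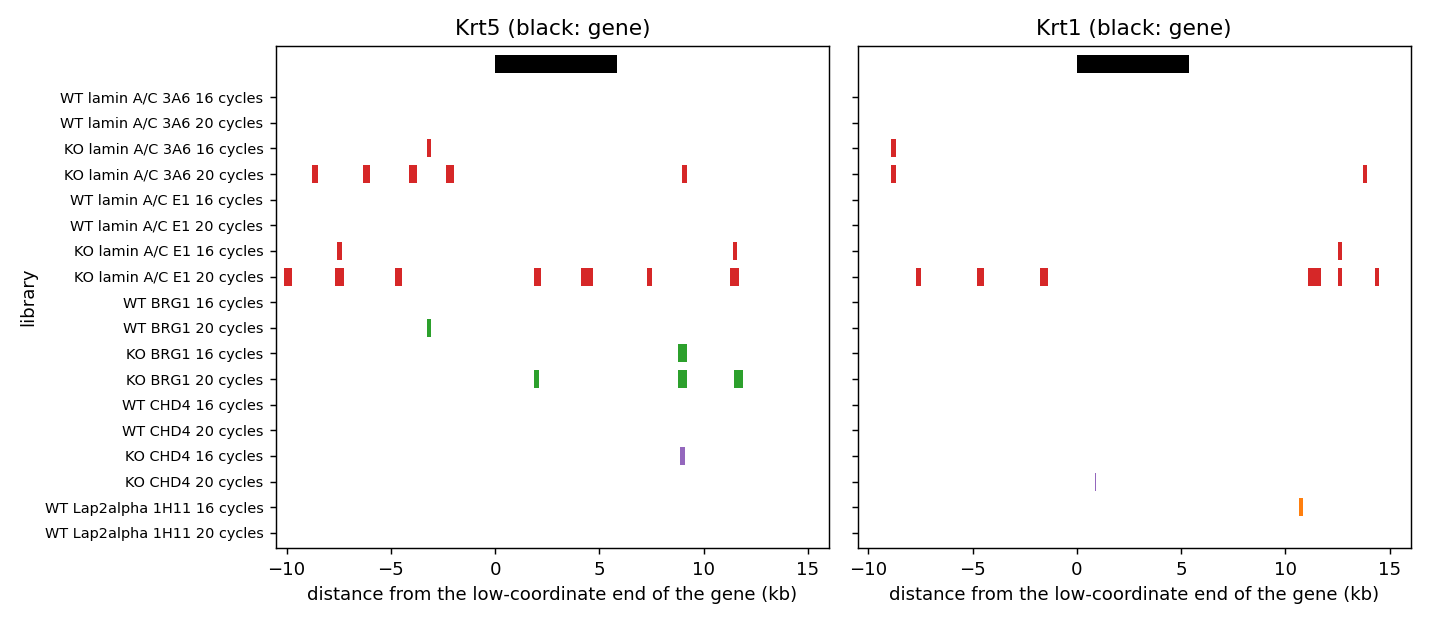
Regions (bars, to scale) of each of the 18 libraries around Krt5 (left) and Krt1 (right), placed by distance in kb from the low-coordinate end of the gene, which is drawn in black. The lamin A/C bars (red) are in KO libraries only, and most lie outside the genes; the WT lamin A/C lines are empty.

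The other keratins on chromosome 15 are the simple epithelial pair. Krt8 had 1 lamin A/C region, chr15:102010828-102011073 in KO E1 at 16 cycles, which covered 0.89% of its window. Krt18 had none in any of the 8 lamin A/C libraries. Krt15 and Krt19 on chromosome 11 also had none, which makes 3 keratins of the 10 without any, beside 16.5% of all genes. The windows of Krt15 and Krt19 overlap, so these neighbours are not separate observations.

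On chromosome 11, Krt10 was covered by 0.47% and 3.29% in KO 3A6 at 16 and 20 cycles and by 0 in KO E1. Its 5 regions at 20 cycles included one 169 bp beyond the gene's high-coordinate end, at chr11:99397619-99397838. Krt14, the basal type I partner of Krt5, was covered by 2.16% in KO 3A6 at 16 cycles and by 0 in the other 3 KO libraries. The wound-induced keratins Krt16 and Krt17, whose windows overlap, had regions in both KO 3A6 libraries and in KO E1 at 20 cycles. Their values were 1.00%, 2.15% and 1.08% for Krt16 and 0.92%, 1.01% and 0.99% for Krt17. Lamin A/C regions within 1 kb of a gene end were found for Krt10 and Krt16 only, in KO 3A6 at 20 cycles. That is 2 of the 10 keratins, beside 39.2% of all genes in at least 1 KO library, and in WT it was 0, beside 12.4%.

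Keratins of chromosome 15 were covered more by KO lamin A/C than those of chromosome 11 in 3 of the 4 libraries. In KO 3A6 the mean at 16 cycles was 0.76% on chromosome 11 against 0.38% on chromosome 15, and at 20 cycles 1.07% against 1.91%. In KO E1 it was 0 against 0.87% at 16 cycles and 0.34% against 4.40% at 20 cycles. Chromosome 11 minus chromosome 15 was -1.35 percentage points ± 1.90 (SD over 4 KO libraries), smaller than its spread, and the first library went the other way. Whole chromosomes went the same way as the keratins in each of the 4 libraries. KO 3A6 regions covered 1.96% of chromosome 11 against 1.53% of chromosome 15 (16 cycles), then 2.54% against 3.13% (20 cycles). KO E1 regions covered 0.99% against 1.96% (16 cycles), then 3.19% against 4.78% (20 cycles). The direction was thus not particular to the keratins. The high chromosome 15 mean came from Krt5 and Krt1, since Krt8 and Krt18 together had a single region.

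Both lamin antibodies found regions near Krt5 and Krt1, but not at the same places. Of the 6 KO 3A6 regions at 16 cycles in all keratin windows, 0 overlapped a KO E1 region at 16 cycles, and of the 14 at 20 cycles 0 overlapped one at 20 cycles. Over the genome 3.55% and 15.3% of KO 3A6 regions did. Within an antibody, 3 of the 4 KO E1 regions at 16 cycles were found again at 20 cycles (45.7% over the genome), and 1 of the 6 KO 3A6 regions was (19.1%). The recovered 3A6 region was the one near Krt1 at chr15:101836513-101836736. Of the 6 KO 3A6 regions at 16 cycles 4 lay on WT BRG1 regions of 20 cycles (14.5% over the genome), near Krt10, Krt14 and Krt5, but 1 lay on WT BRG1 regions of 16 cycles (6.06%) and 1 on KO BRG1 regions of 16 cycles (9.11%). On the WT BRG1 regions of 20 cycles lay 1 of 4 KO E1 regions at 16 cycles (4.47%) and, at 20 cycles, 1 of 14 KO 3A6 regions (7.89%) and 0 of 14 KO E1 regions (2.45%). On KO BRG1 regions of 20 cycles lay 2 of 14 from each antibody (7.15% and 1.58%).

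**Figure D3:**
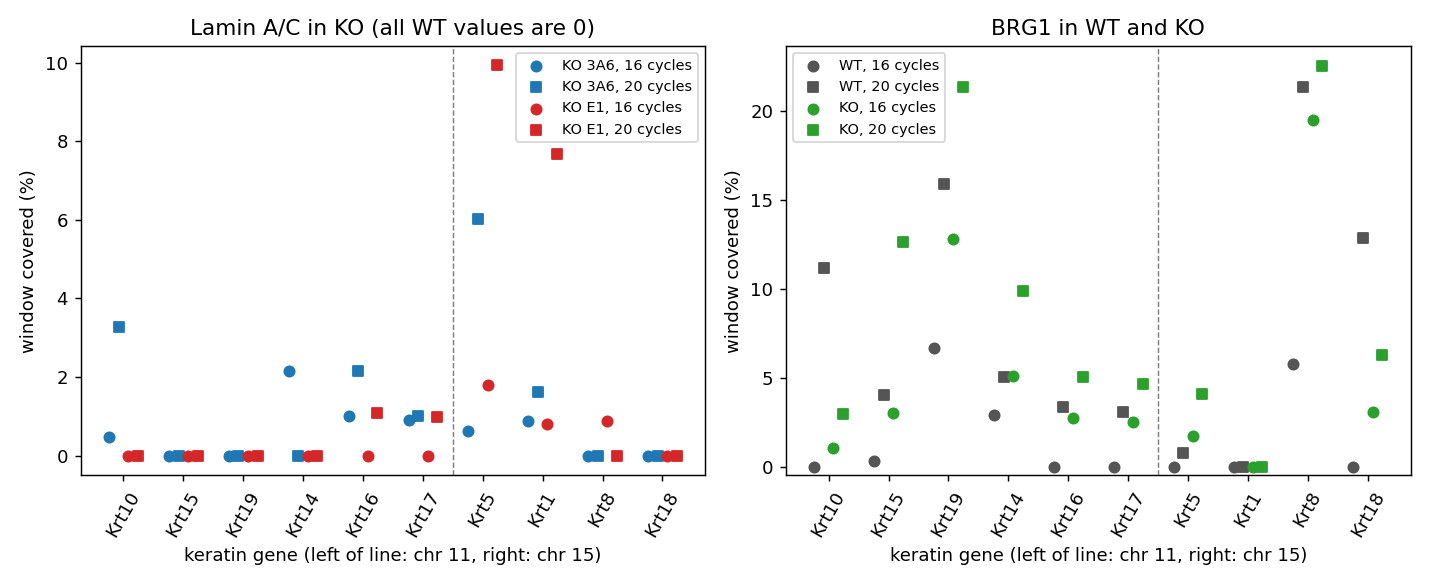
Window coverage (percent) of each keratin in the 4 KO lamin A/C libraries (left) and the 4 BRG1 libraries (right), 1 point per library, circles for 16 and squares for 20 cycles, chromosome 11 genes left of the dashed line. The highest lamin A/C points are Krt5 and Krt1 at 20 cycles, and the highest BRG1 points are Krt8 and Krt19.

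Outside the windows, WT lamin A/C regions of antibody E1 were far from all 10 keratins. The nearest lay 743 to 5502 kb from the gene, with medians of 3337 kb at 16 cycles and 4645 kb at 20 cycles, while the medians over all genes were 504 and 436 kb. For WT 3A6 the distances were 20.5 to 925 kb, with medians of 476 and 66.9 kb against 173 and 233 kb over all genes. In KO the keratins' medians were 6.50 and 16.7 kb with 3A6, farther than the 0 and 2.92 kb over all genes. With KO E1 they were 22.0 and 38.4 kb, nearer than the 52.9 and 113 kb over all genes. The lists differ in length, and longer lists bring regions closer to any gene. Neighbouring keratins can share a nearest region, so these distances are not separate observations. In WT E1 at 16 cycles chr15:103621615-103621928 was nearest to Krt5, Krt8 and Krt18. Mean WT E1 coverage at 16 and 20 cycles was 0.026% and 0.17% over chromosome 11 genes. It was 0.091% and 0.35% over chromosome 15 genes, and 0.18% and 0.77% over all genes.

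The stretch from Krt5 to Krt1 holds other type II keratins of skin and hair follicle, such as Krt71 and Krt2. It was covered by lamin A/C regions by 0.015% ± 0.029 in WT (SD over 4 libraries) and 3.98% ± 3.88 in KO, from 1.04% to 9.61%. It held 6 and 20 KO 3A6 regions and 11 and 37 KO E1 regions at 16 and 20 cycles, and 1 WT region, in 3A6 at 20 cycles. In KO E1 at 20 cycles that is 25.7 regions per 100 kb against 13.1 on chromosome 15, and in KO 3A6 at 16 cycles 4.17 against 6.72. In KO 3A6 at 20 cycles it was 13.9 against 11.4, and in KO E1 at 16 cycles 7.65 against 7.20. By covered length only KO E1 at 20 cycles stood clearly above the chromosome, with 9.61% against 4.93%. The others were at 3.35% against 3.23% (3A6, 20 cycles), 1.92% against 2.02% (E1, 16 cycles) and 1.04% against 1.58% (3A6, 16 cycles). The stretch from Krt8 to Krt18 was covered by 0 in WT and 0.32% ± 0.65 in KO.

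Other keratin genes were taken by symbols of Krt and digits alone, which leaves out Krt6a and Krt6b. Of these 39 genes, KO was above WT for 6 in all 4 lamin A/C pairs. That is 15.4%, beside 11.203% of all genes and 4.87% of genes with windows of the 10 keratins' lengths. They were 5 of 20 on chromosome 15, neighbours from Krt71 to Krt77 on both sides of Krt1, and 1 of 19 on chromosome 11. The 4 with the largest differences were Krt71 (7.11 percentage points ± 7.87), Krt2 (4.41 ± 3.64), Krt73 (3.17 ± 2.29) and Krt20 (2.74 ± 1.93), each with its SD over 4 pairs. Krt20, a keratin of gut epithelium, is the one on chromosome 11, and it lies 30935 bp from Krt10. The median KO minus WT difference was 1.22 percentage points over the other keratins, 0.63 over the 10 and 0.44 over all genes.

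**Figure D4:**
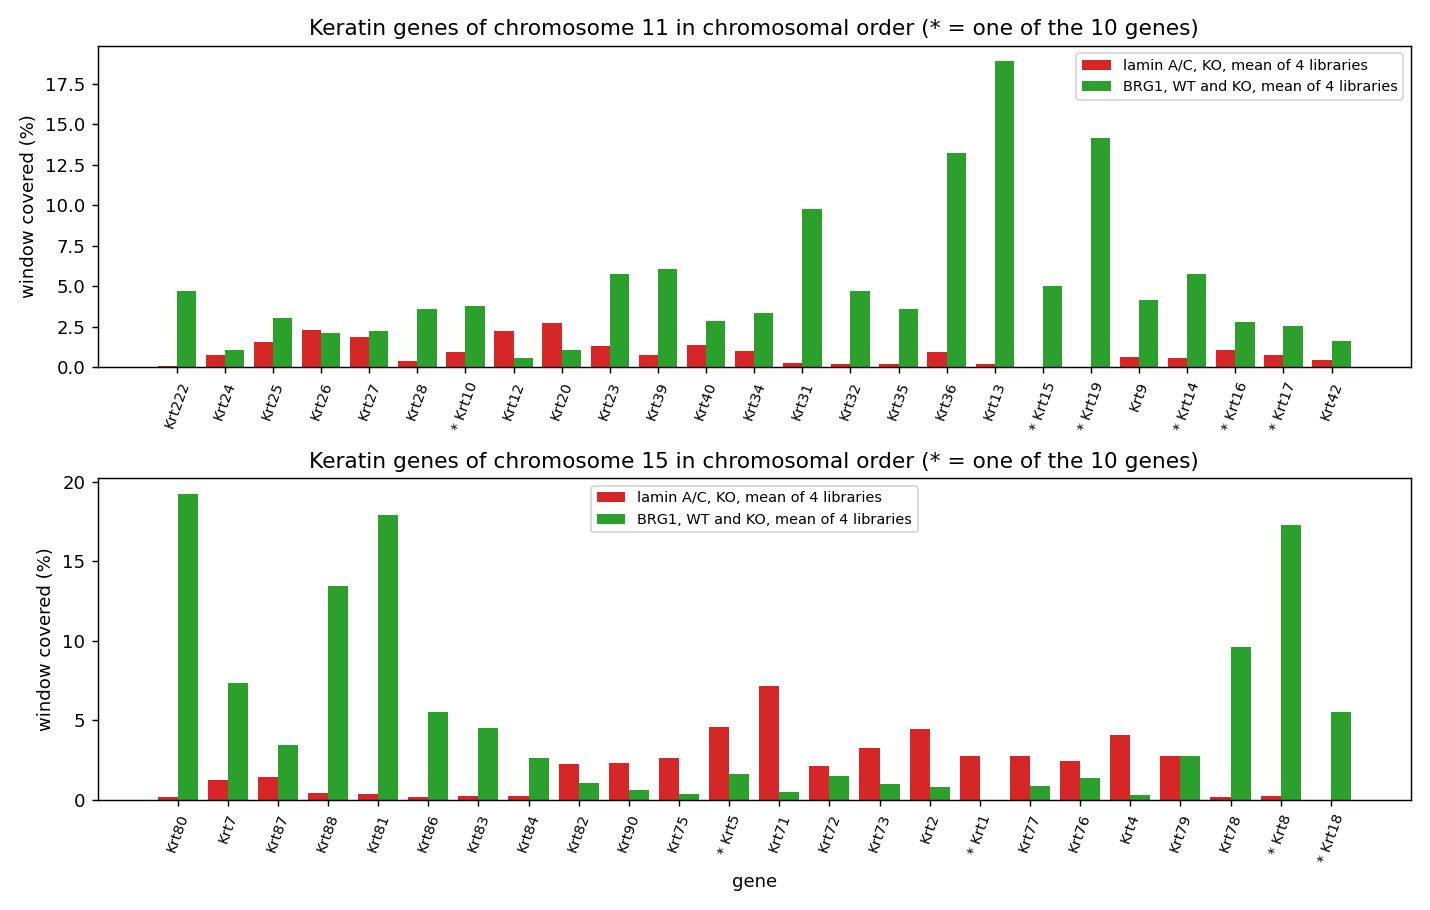
Mean window coverage (percent) by KO lamin A/C regions (red, 4 libraries) and by BRG1 regions (green, 4 libraries of both genotypes) of each keratin gene, in the order of the genes on chromosome 11 (top) and chromosome 15 (bottom), with an asterisk at each of the 10 genes. Only symbols of Krt and digits alone are drawn, so Krt6a and Krt6b are left out. On chromosome 15 the red bars are high from Krt82 to Krt79, with Krt5 and Krt1 among them, and the green bars are high at both ends, with Krt8 and Krt18 at the right; bars are means without error marks, and the libraries spread widely.

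BRG1 showed another order of genes. Krt8, the simple epithelial type II keratin, was covered at 16 and 20 cycles by 5.78% and 21.3% in WT against 19.5% and 22.5% in KO. Both KO values were high, and the WT value at 16 cycles was the lowest of the 4. These values exceeded those of 89.6%, 97.0%, 98.1% and 98.3% of all genes in the same libraries. KO exceeded WT by 7.43 percentage points ± 8.84 (SD over 2 pairs), less than the spread between pairs.

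Krt8 was the only keratin of the 10 with a BRG1 region within 1 kb of a gene end in all 4 libraries, beside 33.9% of all genes. That region lay upstream of the printed Krt8 start, 734 and 653 bases away in WT and 544 and 566 bases away in KO, at 16 and 20 cycles, and did not reach the printed window. The part common to all 4 libraries was chr15:102005076-102005815, and CHD4 regions overlapped it in 3 libraries. A second site common to all 4 BRG1 libraries lay between Krt8 and Krt18 at chr15:102010575-102011430. All 4 CHD4 libraries, Lap2alpha at 20 cycles and the single lamin A/C region of Krt8 also overlapped this second site.

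Krt18, next to Krt8, was covered by BRG1 by 0 and 12.8% in WT and by 3.07% and 6.27% in KO. The WT values were the lowest and the highest, so KO was above WT at 16 cycles and below it at 20 cycles. In WT at 20 cycles a BRG1 region began 368 bases downstream of the printed Krt18 start, and a Lap2alpha region began 365 bases downstream. The stretch from Krt8 to Krt18 was covered by BRG1 by 8.05% and 21.9% in WT and by 17.5% and 22.3% in KO. The stretch from Krt5 to Krt1 was covered by 0 and 1.40% in WT and by 0.69% and 1.80% in KO, below the other stretch in all 4 libraries.

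**Figure D5:**
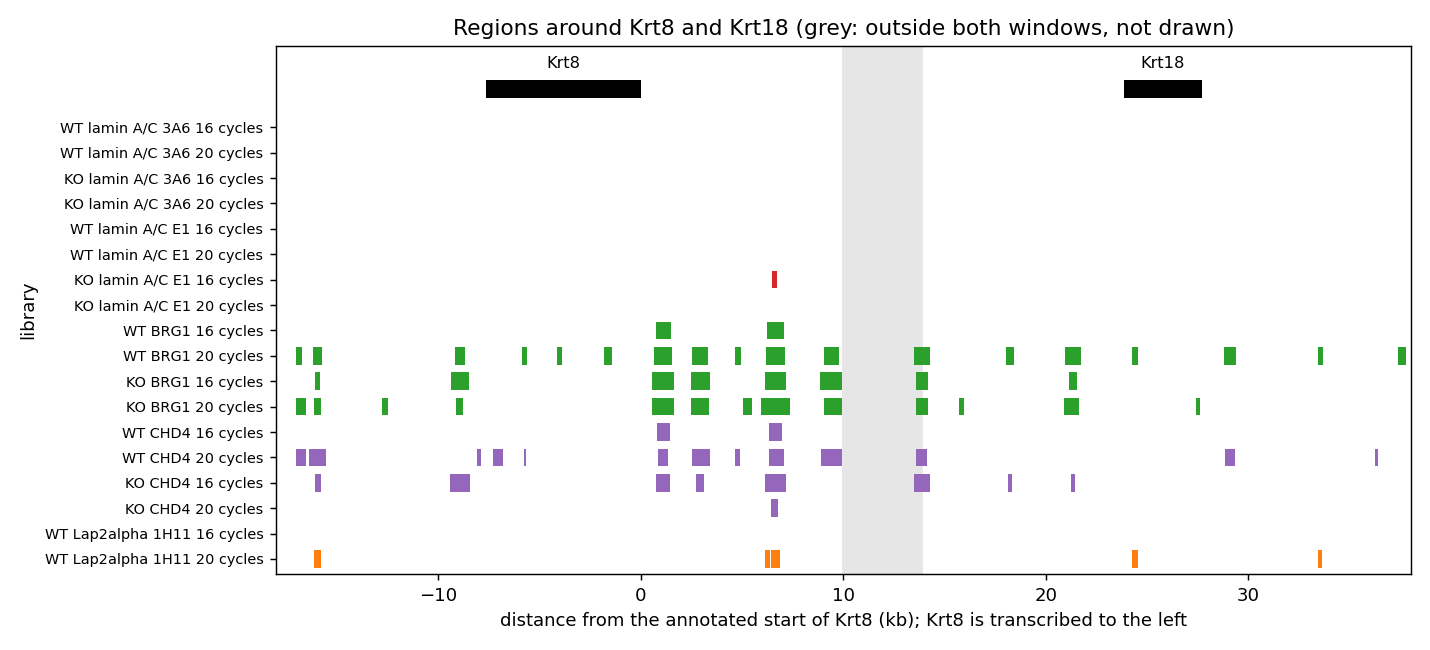
Regions (bars, to scale) of each of the 18 libraries within the windows of Krt8 and Krt18, placed by distance in kb from the annotated start of Krt8, with the genes in black. BRG1 (green) and CHD4 (purple) bars line up at the start side of Krt8 and between the genes, and there is 1 lamin A/C bar (red), in KO E1 at 16 cycles.

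Krt19, a type I keratin of simple epithelia and hair follicle, followed Krt8 in mean BRG1 coverage but stood above it in WT at 16 cycles. At 16 and 20 cycles it was covered by 6.66% and 15.9% in WT and 12.8% and 21.3% in KO, higher in KO by 5.80 percentage points ± 0.46 (SD over 2 pairs). Both KO values were above the WT value of the same sonication length, and the genotypes overlapped across lengths. A site common to all 4 BRG1 libraries lay at chr11:100147282-100148229, 1355 bp beyond the high-coordinate end of Krt19, and all 4 CHD4 libraries overlapped it.

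Krt14 was covered by BRG1 by 2.88% and 5.04% in WT and 5.10% and 9.87% in KO. Both KO values were above both WT values, the first by little. The common site was chr11:100198538-100199239, 3922 bp below the low-coordinate end of Krt14, which a KO 3A6 region at 16 cycles and Lap2alpha at 20 cycles also overlapped. In KO at 20 cycles a BRG1 region covered 124 bases of the printed Krt14 window and spanned its start. It was the only overlap of any of the 18 lists with the 5 start windows. That start lies inside the interval of Krt14, and no BRG1 library had a region within 1 kb of the high-coordinate end of Krt14. Within the gene body BRG1 regions covered 0 in both WT libraries and 10.0% and 15.8% in KO.

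Krt15, the bulge and basal type I keratin beside Krt19, was covered by BRG1 by 0.32% and 4.01% in WT and 2.98% and 12.6% in KO. For Krt16 the values were 0 and 3.36% in WT and 2.74% and 5.05% in KO. For Krt17 they were 0 and 3.09% in WT and 2.52% and 4.64% in KO. In these 3 genes the KO value was above the WT value at each sonication length, while the WT value at 20 cycles was above the KO value at 16 cycles.

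Krt5 had little BRG1, 0 and 0.77% in WT against 1.70% and 4.08% in KO. Krt1 had no BRG1 region in any library. Krt10, the partner of Krt1, was covered by 0 and 11.1% in WT and 1.05% and 2.93% in KO, with WT again lowest at 16 and highest at 20 cycles. BRG1 coverage was thus higher in KO in both pairs for 7 of the 10 keratins, beside 23.9% of all genes. These were 5 of 6 on chromosome 11 and 2 of 4 on chromosome 15, beside 485 of 1609 and 299 of 776 genes there. So were 16 of 39 other keratins, 9 of 16 fibroblast markers and 1 of 12 keratinocyte markers. Krt15 and Krt19 have overlapping windows, as do Krt16 and Krt17, and are not separate observations. A single KO region at 16 cycles, chr11:100248914-100249539, lay in the windows of both Krt16 and Krt17. BRG1 coverage was lower in both pairs for 0 of the 10, beside 6.75%. The count of 7 was 4 with 5 kb on each side, 2 with gene bodies alone and 3 with each region set to 200 bp at its centre.

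The mean BRG1 coverage over the 10 keratins was 4.65% ± 4.37 in WT and 7.04% ± 2.68 in KO (SD over 2 libraries), and over all genes 4.30% and 5.13%. A BRG1 region within 1 kb of a gene end was found in at least 1 library for 8 of the 10, beside 69.4% of all genes, and a CHD4 region likewise for 8, beside 59.6%. A region in every BRG1 library was found for 4 keratins, Krt15, Krt19, Krt14 and Krt8, beside 60.5% of all genes. Chromosome 11 and chromosome 15 keratins differed by -0.72 percentage points ± 1.31 in WT and -0.16 ± 1.92 in KO, both within the spread. Of the 5 WT BRG1 regions at 16 cycles in the keratin windows 4 overlapped a KO region, whereas 4 of the 17 KO regions overlapped a WT region, beside 76.2% and 50.6% over the genome. At 20 cycles 22 of 44 WT regions and 20 of 37 KO regions were shared, beside 40.1% and 47.5%.

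Keratins with much KO lamin A/C coverage tended to have little BRG1 coverage. Across the 10 genes Pearson's r of the 2 mean coverages was -0.55 and Spearman's rho -0.79. Across the 49 keratins with symbols of Krt and digits alone they were -0.54 and -0.78, and across all 21887 genes -0.36 and -0.39. The genes share libraries and windows and are not independent, so these are descriptions.

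CHD4 regions mostly lay at BRG1 regions in 3 of the 4 matched libraries. Of the 16 KO CHD4 regions at 16 cycles in the keratin windows 14 overlapped a KO BRG1 region (71.1% over the genome), and of the 32 WT regions at 20 cycles 21 overlapped a WT BRG1 region (61.4%). At 16 cycles in WT it was 3 of 4 (66.9%), and in the short KO list at 20 cycles 2 of 6 (49.3%). Krt8 had the highest value except in KO at 20 cycles, where Krt14 did with 1.57%. At 16 and 20 cycles Krt8 had 4.57% and 20.0% in WT against 12.5% and 1.19% in KO. Krt19 had 3.55% and 13.4% in WT and 8.71% and 1.52% in KO, below Krt8 except in KO at 20 cycles. In both genes KO was above WT at 16 cycles and below it at 20 cycles, where the KO list was the shortest of all.

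Krt16 alone had less CHD4 coverage in KO in both pairs, with 0.89% and 7.51% in WT and 0 in KO, beside 6.77% of all genes. None of the 10 had more in both pairs, beside 0.512% of all genes. Krt17, whose window overlaps that of Krt16 in part, had 2.92% in WT at 20 cycles and 0 elsewhere. Krt10, Krt15, Krt14 and Krt18 had 0 in WT at 16 cycles, where KO had 2.21% to 6.21%. At 20 cycles the same 4 genes had 2.63% to 6.89% in WT against 0 to 1.57% in KO. Krt5 had 0.87% in KO at 16 cycles and Krt1 0.13% in KO at 20 cycles, with 0 in the other libraries. The mean over the 10 keratins was 3.51% ± 3.69 in WT and 2.16% ± 2.21 in KO (SD over 2 libraries).

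Lap2alpha in WT cells was found near 7 of the 10 keratins in at least 1 library, beside 77.2% of all genes, and near 0 in both, beside 33.7%. At 20 cycles Krt8 was covered by 3.44%, Krt18 by 2.11%, Krt14 by 1.80%, Krt10 by 1.30%, Krt15 by 0.99% and Krt19 by 0.96%. Krt1 had 0.87% at 16 cycles only, and Krt5, Krt16 and Krt17 had no Lap2alpha region. Regions within 1 kb of a gene end were found for 3 keratins, Krt10, Krt19 and Krt18, beside 24.7% of all genes. Of the 9 regions at 20 cycles in the keratin windows 8 overlapped a WT BRG1 region, beside 20.8% of Lap2alpha regions over the genome. A WT CHD4 region was overlapped by 5, beside 13.2%. At 16 cycles the 1 region in the windows overlapped no WT BRG1 region of 16 cycles, beside 12.8%. These genome shares are over all Lap2alpha regions and not only those near genes.

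The windows of Krt5 and Krt1 held no Lap2alpha region at 20 cycles, but the stretch from Krt5 to Krt1 held 14. These covered 3.10% of the stretch, at 9.74 regions per 100 kb against 4.38 on chromosome 15. At 16 cycles the stretch held 2 regions, at 1.39 per 100 kb against 3.35. The higher density was therefore seen at 1 of the 2 sonication lengths.

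Over all 18 libraries, the genes on other chromosomes whose coverage profile was most like the chromosome 11 mean were Msh6 (r = 0.993), Lingo4 (0.989) and Bambi (0.988). For the chromosome 15 mean they were Hspa12a (r = 0.962), Tshz1 (0.951) and Ctdspl (0.950), out of 17081 genes compared. Epidermal genes outside the keratin clusters were set beside the 10 keratins. KO lamin A/C coverage was higher in all 4 pairs for 7 of 12 desmosome genes, 3 of 11 cornified envelope genes, 2 of 14 epidermal transcription factors and 0 of 8 hemidesmosome and basement membrane genes, beside 11.203% of all genes. Of the 7 desmosome genes at least Dsg3, Dsg2, Dsc1, Dsg1a and Dsc3 are neighbours in the cadherin cluster of chromosome 18 and not separate observations. The share of all genes was not matched to these lists in window length. KO lamin A/C coverage was higher for 1 of 56 keratin-associated protein genes, which encode the matrix of hair. It was higher for 0 of 14 other intermediate filament genes, Vim and Lmna among them. The largest differences among them were those of Flg (5.08 percentage points ± 3.21), Casp14 (4.82 ± 2.36), Ehf (3.86 ± 3.12) and Dsg3 (3.80 ± 2.89), with SD over 4 pairs. Flg and Casp14 serve the cornified layer, Ehf is an epithelial ETS factor and Dsg3 is a desmosomal cadherin.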

How the data were processed

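Of 22 samples, 18 with a ChIP-seq region list were used, and the 4 inputs were not analysed here. What the authors deposited for a library is a list of intervals (chromosome, start, end) without heights. The build is GRCm38, and the tools named, without roles, are MACS2 2.1.4, HOMER 4.11.1, deepTools, bedtools and SAMtools, per the submitters' processing notes. How regions were called, and against which control, is not given in the sources used here. Per the labels' protocols, cells were fixed with DSG plus formaldehyde and sonicated in a Bioruptor Pico. A longer list can come from more reads or a looser threshold, so coverage is not an amount of protein.

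Intervals of width 0 and on the mitochondrial genome were dropped, and overlapping intervals of a list (7 lists held some) were merged into regions. These 7 were all E1 lists and the KO lists of 3A6, BRG1 and CHD4 at 20 cycles. The WT lists matched to those KO lists held none, so these pairs at 20 cycles set lists of unlike form side by side. How the forms were made is not given in the sources used here. Their part in the KO minus WT values was not tested. For each gene of the RefSeq table, the window was the gene and 10 kb on both sides. A gene-end region overlapped, by at least 1 bp, a window of 1 kb to each side of either gene end, because the gene table gives no strand. Groups came from the sample titles, and WT and KO were matched on antibody and cycles. A gene counted as higher or lower if it was so in every pair. Since each group is 1 library, nothing was tested. Interval functions were tested on simulated data. Python 3.11.15, NumPy 2.4.6, SciPy 1.17.1 and matplotlib 3.10.9 were used.

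The genes and lists were chosen with earlier results of these data known. All 10 keratins were named, and from each list up to 4 genes with the largest lamin A/C difference among those higher in every pair, or with the most BRG1 coverage among those with a BRG1 gene-end region in all 4 libraries. Like profiles were the 3 of highest Pearson correlation on other chromosomes, with coverage in at least 6 libraries. Alternatives changed the flanks, gene-end windows, merging, minimum width, list length, antibodies and cycles.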

Additional observations from a re-analysis of the deposited data

Results flagged for a closer look

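For several keratins the KO minus WT difference in coverage had opposite signs at the 2 sonication lengths; with 1 pair at each length, the difference between lengths was not tested. BRG1 coverage of Krt10 differed by 1.05 percentage points at 16 cycles and by -8.20 at 20 cycles, and that of Krt18 by 3.07 and -6.54. CHD4 coverage over the 10 keratins differed by 2.82 percentage points at 16 cycles and by -5.53 at 20 cycles. By gene, the CHD4 differences at 16 and 20 cycles were 3.25 and -1.11 for Krt10, 2.21 and -6.89 for Krt15, and 5.16 and -11.84 for Krt19. They were 6.21 and -2.51 for Krt14, 7.90 and -18.82 for Krt8, and 3.52 and -3.84 for Krt18. The KO CHD4 list at 20 cycles held 7283 regions and the WT list 109769, and the part of this gap in the CHD4 values was not tested.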

How the results depend on the processing

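No paired analysis was possible because no result came from a test: WT and KO are matched on antibody and cycles, with 1 library each and no replicates to block on. Over 13 alternatives, KO minus WT lamin A/C coverage (1.08 percentage points) moved by less than the SD over pairs. Only with 50 kb on each side could it have turned negative, and there it was 1.15. In the other settings no keratin had WT lamin A/C coverage, so the kept sign says nothing about robustness. The chromosome 11 minus chromosome 15 lamin difference (-0.67) kept its sign and moved by less than the SD over the 8 libraries of both genotypes. BRG1 gene ends (8 keratins) and Lap2alpha gene ends (3) stayed within 1.5 times under 6 and 5 alternatives. Counting intervals as listed, without merging, leaves covered length unchanged.

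For the other results the cause of a change was not tested. With 5 kb on each side, chromosome 11 minus chromosome 15 turned to 0.92 for BRG1 (from -0.44), to 1.04 for CHD4 (from -0.13) and to 0.29 for Lap2alpha (from -0.38), 4 keratins were higher for BRG1 in both pairs (from 7) and 0 for lamin A/C in every pair (from 2). With gene bodies alone these were 3.07 for BRG1, 1.84 for CHD4, 2 keratins for BRG1 and 0 for lamin A/C. With 50 kb on each side, 6 keratins had no WT lamin A/C region (from 10). With equal numbers of the widest regions, CHD4 KO minus WT was 1.35 (from -1.35), its chromosome difference 0.045, its gene ends 5 (from 8), and 0 keratins were higher for lamin A/C. At 16 cycles alone CHD4 KO minus WT was 2.82, and at 20 cycles alone its chromosome difference was 0.35. With regions of at least 200 bp, 1 keratin was higher for lamin A/C. Gene-end windows of 2.5 kb gave 5 keratins with lamin A/C and 500 bp gave 1 (from 2). Chosen after seeing the data were leaving out the 16-cycle 3A6 pair, the counts of keratins under each setting, and regions of 200 bp at their centres. With the last, BRG1 KO minus WT was 0.29 (from 2.38), the chromosome difference 0.13 for BRG1 and 0.050 for CHD4, and 3 keratins were higher for BRG1.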

Other observations

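Coverage of the genes around the keratins varied along both clusters. Krt78, 86 bp from Krt8 on the side of Krt1, had a mean BRG1 coverage of 9.60% over 4 libraries and a KO lamin A/C coverage of 0.14%, while Krt79 beyond it had 2.73% and 2.76%. Eif4b, a translation initiation factor gene 41746 bp from Krt18, on the other side, had 21.5% for BRG1 and no KO lamin A/C region, and Tns2, a focal adhesion gene 66448 bp away, had 19.8% and 0.15%. Beyond Krt5, Krt6a and Krt6b, type II keratins that pair with Krt16 and Krt17 in wounded epidermis, had 0.53% and 0 for BRG1 and 4.03% and 3.48% for KO lamin A/C. Krt13 and Krt36, neighbours of Krt15, had 18.9% and 13.2% for BRG1 and 0.20% and 0.91% for KO lamin A/C. These neighbours were chosen after their values were seen.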
